A study of Mus musculus with 12 samples.

Results

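The circadian clock genes Per1, Per2, Per3, Cry1, Cry2, Nr1d1, Nr1d2, Dbp, Clock and Bhlhe40 were described in mouse carotid arteries, probe by probe. Every probe that the platform annotation gives to 1 of these symbols was taken, which came to 19 probes of 10 genes among 45281 probes on the array and 19057 genes with a named probe. The study examined how loss of fibulin-5, an elastic fibre protein encoded by Fbln5, bears on the response of an artery to disturbed flow. Disturbed flow was made in the left common carotid artery (LCA) by tying off some of its branches (partial ligation), and the right one (RCA) was not operated on. Arteries were taken 1 day after ligation, and total RNA was hybridised to 12 one-colour Illumina arrays.

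There were 4 groups of 3 arrays each. KO LCA was the ligated left artery of fibulin-5 knockout mice, KO RCA the untouched right artery of knockout mice, WT LCA the ligated left artery of wild-type mice and WT RCA the untouched right artery of wild-type mice. All 12 samples carry the strain label C57Bl/6J. The labels give neither the construction of the knockout allele nor the age or sex of the mice. They also do not give the hour at which arteries were taken, which matters for genes whose transcripts cycle over the day. Nor do they state that arrays in 1 group were made from different mice, so the p-values below measure the spread between these samples.

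The mammalian clock is a transcriptional feedback loop. Clock and its partner Arntl (Bmal1) bind E-box elements and activate Per and Cry genes, whose proteins then repress Clock and Arntl. The nuclear receptors Nr1d1 and Nr1d2 (Rev-erb alpha and beta) repress Arntl, Dbp is an output activator that binds D-box elements, and Bhlhe40 (DEC1) is a repressor that competes at E-boxes. The loop runs in endothelial and smooth muscle cells of arteries, and the phase of a tissue sets which of these transcripts are high when it is sampled.

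The promoter elements through which these genes regulate one another are shown where they could be found, because they define the roles by which the results are ordered. RefSeq promoter windows of build GRCm38.p6, running from 250 bases before to 50 after a start site, were available for 8 of the 10 genes in 11 windows, and Per2 and Bhlhe40 had no entry. Searched on both strands, the E-box CACGTG, which is its own reverse complement, was found in the windows of 2 genes. The D-box, searched as TTATGTAA or TTACGTAA, was found in 1 gene, which carries it at 2 places. The Rev-erb response element (RORE) was searched as TAGGTCA preceded by A or T, then A, then A or T, then any base. That form was found in 0 of the 8, and other forms of the element were not searched. Capitals mark the motif, written 5′ to 3′ on the strand of the gene, with 20 bases on either side.
Per1 E-box, chr11:69098763-69098808, plus strand: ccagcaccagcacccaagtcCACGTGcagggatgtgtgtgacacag
Cry1 E-box, chr10:85185089-85185134, minus strand: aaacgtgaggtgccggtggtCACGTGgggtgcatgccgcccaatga
Per3 upstream D-box, chr4:151044843-151044890, minus strand: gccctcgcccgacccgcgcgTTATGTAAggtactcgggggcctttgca
Per3 downstream D-box, chr4:151044796-151044843, minus strand: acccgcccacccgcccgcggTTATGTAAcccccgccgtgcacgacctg
The Per1 motif began at position -166 from the start site, the Cry1 motif at -60, and the Per3 motifs at -205 and -158. Among all 32851 mouse promoter windows of 300 bases in the same set, 7.15% held the E-box, 1.06% the D-box and 0.18% the RORE. A match describes these letters only and says nothing of binding in these arteries.

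The deposited values are linear intensities with nearly the same distribution on every array, as quantile normalisation gives, between 72.4 and 10230 over all arrays with array medians of 93.5 to 93.6. As a guide to background, the 95th percentile of 1504 olfactory and vomeronasal receptor probes was taken on each array, and it lay between 95.7 and 126. Array WT LCA 3 had the highest such level, the smallest share of named probes above it (11.6%, against 43.5% on KO LCA 3) and the lowest median correlation with other arrays (0.691, against up to 0.865). WT RCA 3 came next with a median correlation of 0.781. Several WT results below are also given without these arrays. The Fbln5 probe read 80.6 to 97.4 and lay below background on all 12 arrays, WT included, so it does not check the knockout labels. Arterial identity was checked with marker lists. Of 10 endothelial markers, 7 were above background on all 12 arrays, and of 10 smooth muscle markers 1 was, with none of either list below background throughout. Of 6 erythrocyte markers with a probe, 4 were above background on all 12 arrays too. The lists do not show how much of the RNA came from blood.

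Most clock probes were dim. Of the 19 probes, 3 were above background on all 12 arrays (Per1 ILMN_2813484, Cry2 ILMN_2665681 and Nr1d2 ILMN_2798993), 15 were above it on at least 3 arrays and 1, for Per3, on none. Those 15 probes cover 8 genes, and Per3 and Cry1 are outside them. A filter that kept probes at or above the array median on at least 3 arrays passed 17 of the 19, leaving out Per3 ILMN_1257393 and Cry1 ILMN_2618668. These 17 were tested in limma with all 25796 single-symbol probes that passed, and p-values were adjusted over all of them by the Benjamini-Hochberg method.

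No clock probe passed an adjusted p of 0.05 in any of 7 comparisons. The shares of all 25796 probes that passed were 0.0% for ligation in KO, ligation in WT, KO in RCA, the interaction and ligation averaged over genotypes, 0.0426% for KO in LCA and 0.124% for KO averaged over sides, so the clock genes shared this result with nearly all genes on the array. At an unadjusted p under 0.05, 0 of 17 clock probes were counted for ligation in KO (7.54% of all probes), 2 for ligation in WT (6.84%), 1 for KO in LCA (6.46%), 2 for KO in RCA (4.32%), 0 for the interaction (3.62%), 1 for ligation averaged over genotypes (10.6%) and 2 for KO averaged over sides (6.43%). The probes behind these counts are described below with the others, Bhlhe40 first and then by role.

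**Figure D1:**
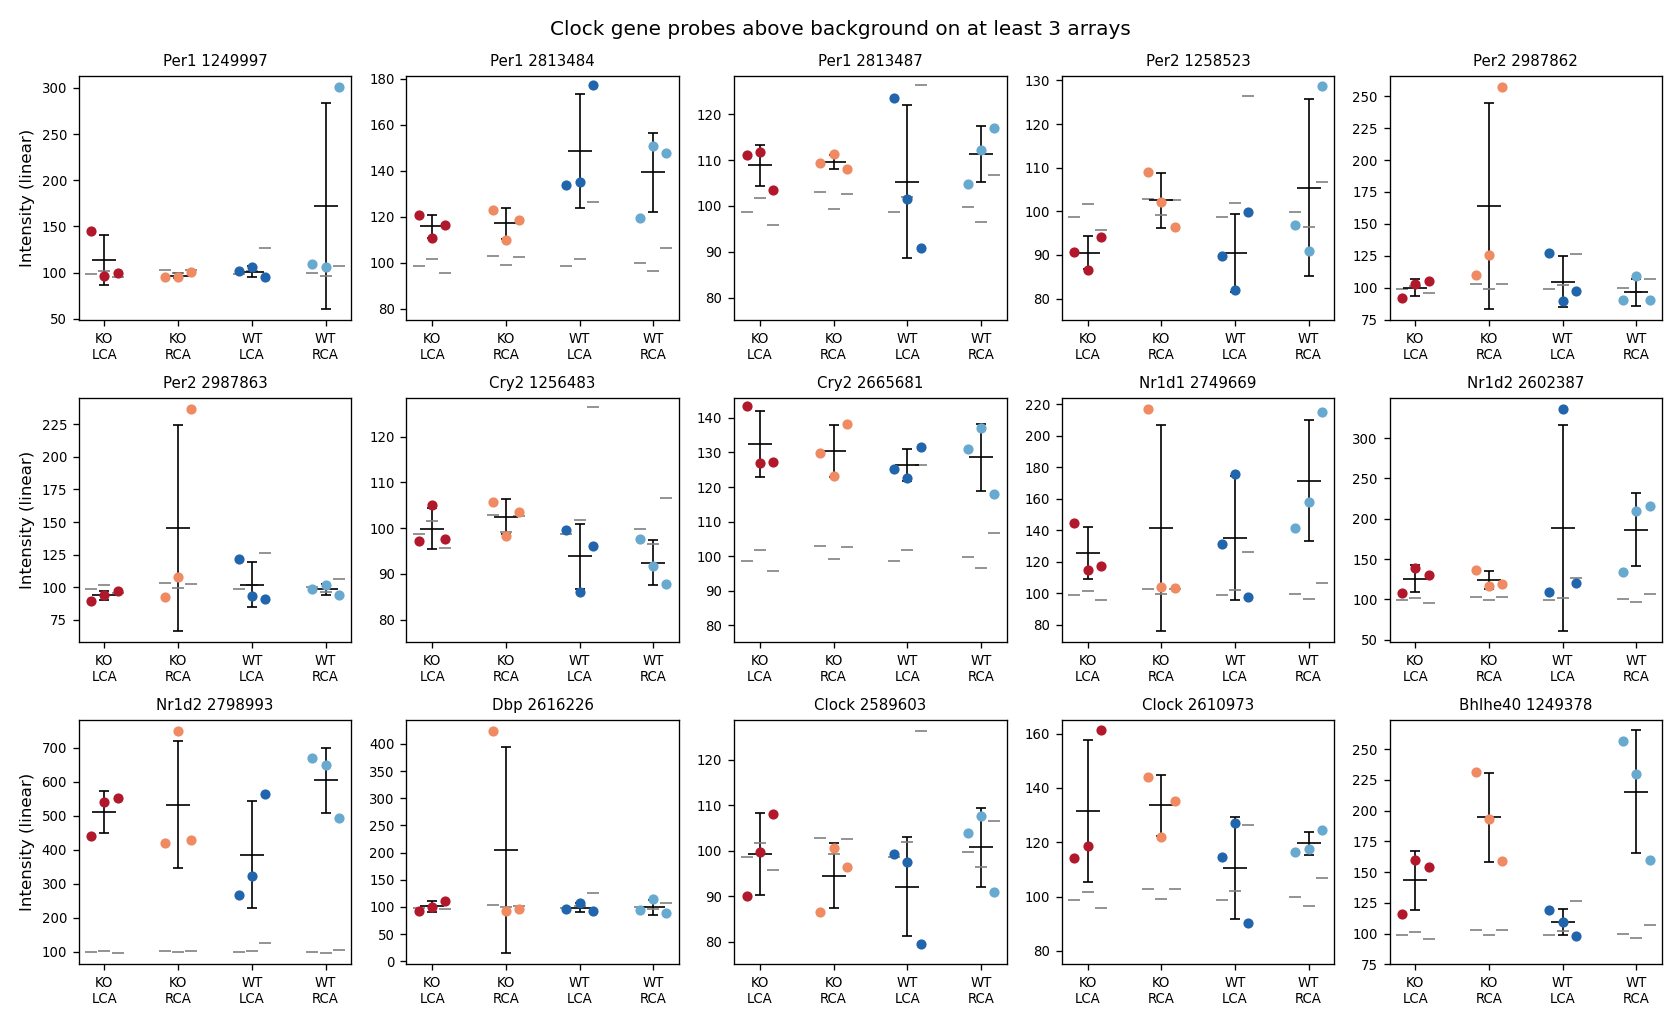
Deposited intensity (linear) of the clock probes described in full, by group in the order KO LCA, KO RCA, WT LCA and WT RCA, with 1 point for each of 3 arrays and the group mean ± SD. Grey dashes mark the background level of each array, and panels have separate axes that do not start at 0. Most probes sit close to background, Bhlhe40 is lower in LCA than in RCA in WT without overlap, and Dbp is high on 1 KO RCA array only.

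Bhlhe40 had the smallest p of the clock probes for ligation in WT and averaged over genotypes, while in KO a Per2 probe described below had a slightly smaller one. It read 116, 160.0 and 154 on KO LCA arrays 1, 2 and 3, against 232, 193 and 159 on KO RCA arrays. In wild type it read 119.6, 109 and 98.5 on WT LCA arrays, against 256, 230.1 and 160.2 on WT RCA arrays. All 3 WT LCA arrays lay below all 3 WT RCA arrays, whereas in KO the highest LCA array just passed the lowest RCA array. The group means were 144 ± 23.9 in KO LCA, 195 ± 36.4 in KO RCA, 109 ± 10.6 in WT LCA and 216 ± 49.7 in WT RCA (SD, n = 3 each). The probe was above background on 11 arrays, and WT LCA 3 was the exception.

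On the log2 scale the Bhlhe40 difference between LCA and RCA was -0.96 ± 0.20 in WT (SE; 95% interval -1.41 to -0.51), with an unadjusted p = 0.000807 and adjusted p = 0.386 in limma. In KO it was -0.44 ± 0.20 (-0.89 to 0.01), with adjusted p = 0.671. Averaged over genotypes it was -0.70 ± 0.14 (-1.02 to -0.38), which is 0.617 times the RCA level, with unadjusted p = 0.000656 and adjusted p = 0.353. None of these passed the threshold over all probes. The difference between genotypes in the ligation effect, the interaction, was 0.52 ± 0.28 with adjusted p = 0.919 and an interval from -0.11 to 1.16, so an effect of equal size and one absent in KO both lie within the error.

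The Bhlhe40 ligation difference kept its sign in KO, in WT and averaged when each array was left out in turn. For WT it was -0.89 without WT LCA 3 (adjusted p = 0.553), -1.16 without WT RCA 3 (adjusted p = 0.141) and -1.09 without both (adjusted p = 0.274). For KO it was -0.29 without KO LCA 1. The genotype contrasts of this gene were smaller than the ligation contrast in WT, at 0.39 ± 0.20 for KO over WT in LCA (adjusted p = 0.788) and -0.14 ± 0.20 in RCA (adjusted p = 1.00).

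Summed endothelial markers were lower in WT LCA than in WT RCA without overlap, as Bhlhe40 was, whereas in KO the sides overlapped. The 10 of them, all with a probe, summed to 2794 to 5451 in KO LCA, 3417 to 4517 in KO RCA, 2932 to 3691 in WT LCA and 3730 to 4634 in WT RCA, in intensity units. Their mean log2 difference between LCA and RCA was -0.22 in KO and -0.29 in WT, smaller than that of Bhlhe40 in both. Over the 12 arrays, which share their groups and array quality, the mean log2 level of the endothelial list had r = 0.598 with Bhlhe40. The skeletal muscle list, with 6 of its 8 markers above background on no array, had r = -0.589. A list mostly at background thus reached an r of like size with the opposite sign. The remaining lists lay between -0.363 (neutrophil) and 0.374 (Schwann cell). Fibroblast markers were also apart in WT, at 1065 to 1508 in LCA and 1514 to 2278 in RCA (mean log2 difference -0.24), but their mean difference in KO was 0.39. Schwann cell markers summed to 469.5 to 477 in WT LCA and 504 to 534 in WT RCA. Other lists were higher in WT LCA, with mean log2 differences of 0.29 for neutrophil and 0.26 for erythrocyte markers. In KO these were 0.002 and -0.53. The part of these cell types in the Bhlhe40 difference was not tested. The labels do not say which layers of the artery gave the RNA, and in such bulk RNA, fewer cells of a type and less RNA per cell cannot be told apart.

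**Figure D2:**
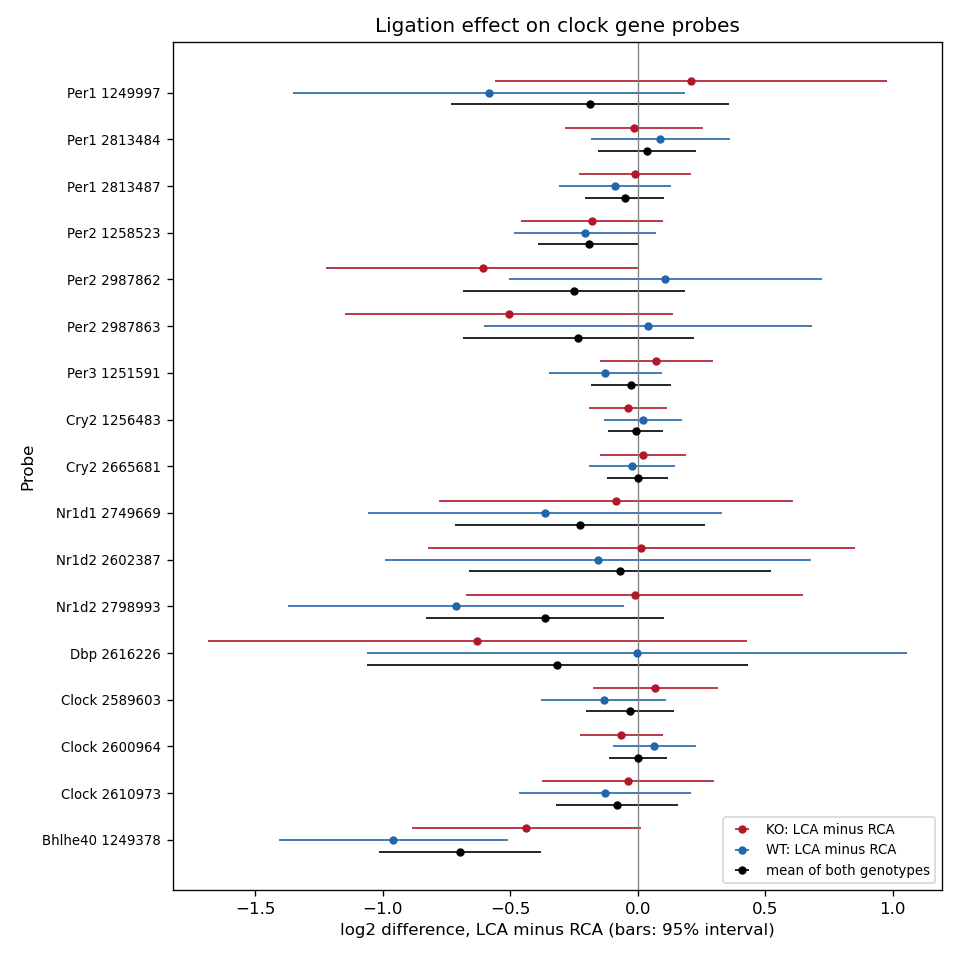
Difference in log2 intensity between LCA and RCA for the 17 clock probes that passed the filter, in KO (red), in WT (blue) and averaged over both genotypes (black), with 95% intervals from limma. Bhlhe40 lies farthest below 0 with the averaged difference at -0.70, and the averaged interval of each of the other 16 probes includes 0.

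The averaged ligation differences of the other probes leaned the same way by count. Of the 17 tested probes, 15 were lower and 2 higher in LCA when genotypes were averaged, with a median of -0.08, beside 50.7% lower among all probes tested. With no filter, 16 of the 19 probes were lower. Several of these probes measure 1 gene or follow 1 array, as described below, and the count carries no test. In KO alone 12 were lower and 5 higher (median -0.04), and in WT alone 12 were lower and 5 higher (median -0.13).

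Per1, a repressor of the loop that is induced rapidly by many stimuli, is measured by 3 probes. ILMN_2813484, above background on all 12 arrays, read 121, 111 and 116 in KO LCA and 123, 109.8 and 119 in KO RCA, against 134, 135 and 177 in WT LCA and 119.6, 151 and 148 in WT RCA. KO LCA lay wholly below WT LCA, while KO RCA and WT RCA overlapped, and the value of 177 came from array WT LCA 3. The log2 difference of KO from WT averaged over sides was -0.29 ± 0.09 (-0.49 to -0.10), with unadjusted p = 0.00667 and adjusted p = 0.408. In LCA alone it was -0.35 ± 0.12 with adjusted p = 0.632, and -0.21 without WT LCA 3. Without both WT arrays numbered 3 the averaged Per1 difference was -0.21 ± 0.07 with adjusted p = 0.560.

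In the other Per1 probes KO LCA and WT LCA overlapped. ILMN_2813487 read 111, 112 and 104 in KO LCA and 109, 111 and 108 in KO RCA, against 124, 102 and 90.8 in WT LCA and 105, 112 and 117 in WT RCA. Its difference of KO from WT averaged over sides was 0.02 ± 0.07 on the log2 scale. ILMN_1249997 read 145, 96.7 and 99.5 in KO LCA and 94.8, 95.2 and 100.2 in KO RCA, against 102, 107 and 94.8 in WT LCA and 109, 106 and 301 in WT RCA. That last probe was below background on all 3 KO RCA arrays, and these lay below all 3 WT RCA arrays. Its mean in WT RCA, which includes the 301, was 1.49 times the background level of the KO RCA arrays. The fitted log2 difference of KO from WT in RCA was -0.65 ± 0.34 (adjusted p = 1.00). The size rests on 1 array, because without WT RCA 3 the Per1 difference in RCA was -0.15 ± 0.16.

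The summed smooth muscle markers ran opposite to Per1 ILMN_2813484, with KO above WT on both sides. The 10 markers summed to 1822 to 2272 in KO LCA, 1484 to 1614 in KO RCA, 1216 to 1291 in WT LCA and 1146 to 1317 in WT RCA. Fibroblast markers differed by a mean of 0.56 on the log2 scale between KO LCA (1658 to 2332) and WT LCA (1065 to 1508), and adipocyte markers by 0.37 (1179.8 to 1529.9 against 849 to 1053). In RCA these lists differed by -0.07 and -0.01, and erythrocyte markers by 1.05, with sums of 2671 to 10479.6 in KO RCA and 1169 to 3109 in WT RCA. Their part in any clock gene difference between KO and WT, those of Per2 and Dbp in RCA included, was not tested.

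Per2, the other main period repressor, is measured by 3 probes, of which a pair move together on 1 array. ILMN_2987862 read 92.2, 103 and 105 in KO LCA and 109.7, 125.5 and 257 in KO RCA, against 127, 89.4 and 97.8 in WT LCA and 90.4, 109 and 90.3 in WT RCA. ILMN_2987863 read 89.8, 94.2 and 97.1 in KO LCA and 92.2, 107.5 and 237 in KO RCA, against 122, 93.4 and 90.6 in WT LCA and 99.0, 102 and 94.1 in WT RCA. Both were highest on KO RCA 3. The third, ILMN_1258523, did not share this. It read 90.8, 86.7 and 94.2 in KO LCA and 109, 102 and 96.4 in KO RCA, against 89.9, 81.9 and 99.8 in WT LCA and 96.8, 90.8 and 129 in WT RCA.

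For ILMN_2987862 the KO RCA arrays lay above all KO LCA and all WT RCA arrays. The log2 difference of KO from WT in RCA was 0.66 ± 0.27 (unadjusted p = 0.0368, adjusted p = 1.00) and that of LCA from RCA in KO was -0.61 ± 0.27 (adjusted p = 0.666). Without KO RCA 3 these Per2 differences were 0.29 ± 0.15 and -0.23 ± 0.15. For ILMN_2987863, ligation in KO gave -0.51 ± 0.29 with all arrays, -0.09 ± 0.13 without KO RCA 3 and -0.77 without KO RCA 1. ILMN_1258523 was below background on every LCA array, and its averaged ligation difference was -0.19 ± 0.09 (adjusted p = 0.472), or -0.12 ± 0.06 without WT RCA 3 (adjusted p = 0.581). In KO its mean in RCA, above background on 2 of 3 arrays, was 1.04 times the background level of the LCA arrays. The fitted ligation difference in KO was -0.18 ± 0.12, with an interval of -0.46 to 0.10 that includes no change.

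Per3, the remaining period gene, was dim throughout. ILMN_1251591 ranged from 78.2 to 104.6 and exceeded background on 1 array, WT RCA 2, while ILMN_1257393 ranged from 83.3 to 97.6 and exceeded it on none. The D-boxes printed above thus belong to a gene at or near background on these arrays.

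The cryptochromes repress Clock and Arntl together with the period proteins. Cry2 ILMN_2665681 differed little between groups, at 143, 127 and 127 in KO LCA and 129.7, 123 and 138 in KO RCA, against 125, 122 and 131 in WT LCA and 131, 137 and 118 in WT RCA. Its averaged ligation difference was -0.00 ± 0.05 on the log2 scale with an interval of -0.12 to 0.12, and all groups overlapped. KO from WT averaged over sides gave 0.04 ± 0.05 for this Cry2 probe.

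Cry2 ILMN_1256483 was near background, at 97.1, 105 and 97.5 in KO LCA and 106, 98.4 and 103.5 in KO RCA, against 99.5, 85.9 and 96.0 in WT LCA and 97.7, 91.7 and 87.9 in WT RCA. All KO RCA arrays lay above all WT RCA arrays, and none of the WT RCA arrays exceeded background. The KO RCA mean was 1.02 times the background level of the WT RCA arrays. The fitted log2 difference in RCA was 0.15 ± 0.07, with an interval of -0.004 to 0.304 that includes no change. The log2 difference of KO from WT averaged over sides was 0.12 ± 0.05 with unadjusted p = 0.0328 and adjusted p = 0.689. Cry1 ILMN_2618668 read 80.2 to 93.7 on 11 arrays and 140.2 on KO RCA 2, the only array where it exceeded background. All WT LCA arrays lay below all WT RCA arrays for it, but both groups were at background and no fold was taken.

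The Rev-erb genes repress Arntl and are themselves E-box targets. Nr1d2 ILMN_2798993 read 441, 540.4 and 553 in KO LCA and 419.5, 749 and 430.0 in KO RCA, against 267, 324 and 564 in WT LCA and 670.2, 649 and 495 in WT RCA. The KO groups overlapped widely. In WT, LCA arrays 1 and 2 lay below every RCA array, and LCA array 3 lay among them. The log2 difference of LCA from RCA was -0.71 ± 0.30 in WT (-1.37 to -0.05; unadjusted p = 0.0369, adjusted p = 0.699) and -0.01 ± 0.30 in KO, with an interaction of 0.70 ± 0.42 (adjusted p = 0.919). Without WT LCA 3 the Nr1d2 difference in WT was -1.03 ± 0.25 with adjusted p = 0.522, and without both WT arrays numbered 3 it was -1.16 ± 0.27 with adjusted p = 0.463. Without WT LCA 1, the lowest array, it shrank to -0.49, so its size depends on which arrays are kept.

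The other Nr1d2 probe, ILMN_2602387, read 108, 139 and 130.3 in KO LCA and 137, 117 and 118.5 in KO RCA, against 109, 336 and 119.7 in WT LCA and 134, 209.8 and 216 in WT RCA. Its highest value was on WT LCA 2, one of the arrays on which ILMN_2798993 was low. The difference of LCA from RCA in WT was -0.16 ± 0.37 with all arrays and -0.67 ± 0.20 without WT LCA 2, where its adjusted p was 0.597. It was 0.07 ± 0.41 without WT LCA 3, 0.14 ± 0.38 without WT LCA 1 and 0.19 ± 0.46 without both WT arrays numbered 3, so its sign depends on single arrays. For KO from WT averaged over sides, ILMN_2602387 gave -0.47 ± 0.26 (adjusted p = 0.867 in limma), or -0.62 to -0.21 with arrays left out. This was the largest such difference in size among the tested clock probes. ILMN_2798993 went the other way, at 0.13 ± 0.21 (adjusted p = 0.900). Nr1d1 ILMN_2749669 read 145, 115 and 117 in KO LCA and 217, 104 and 103 in KO RCA, against 131, 176 and 97.7 in WT LCA and 142, 158 and 215 in WT RCA. Its groups overlapped in all comparisons, with ligation differences of -0.09 ± 0.31 in KO and -0.36 ± 0.31 in WT. Without KO RCA 1, the Nr1d1 difference in KO was 0.27 ± 0.25, and without both WT arrays numbered 3 that in WT was 0.02 ± 0.35.

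Dbp, the D-box binding output of the loop, was near background except on 1 array. ILMN_2616226 read 92.2, 100.3 and 112 in KO LCA and 424, 93.1 and 96.8 in KO RCA, against 96.0, 107 and 92.3 in WT LCA and 94.0, 115 and 88.3 in WT RCA. The value on KO RCA 1 was 3.68 times the next highest. With all arrays the log2 difference was -0.63 ± 0.47 for ligation in KO and 0.67 ± 0.47 for KO over WT in RCA. Without KO RCA 1 the Dbp differences were 0.09 ± 0.13 and -0.05 ± 0.13, so both signs rest on that array.

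Clock, the activator, is measured by 3 probes. ILMN_2610973 read 114, 119 and 161 in KO LCA and 144, 122 and 135 in KO RCA, against 115, 127 and 90.1 in WT LCA and 117, 118 and 124 in WT RCA. Its difference of KO from WT averaged over sides was 0.20 ± 0.11 with adjusted p = 0.851. The lowest value came from WT LCA 3 and the highest from KO LCA 3, and the difference was 0.13 ± 0.10 without WT LCA 3 and 0.12 ± 0.09 without KO LCA 3. ILMN_2589603 read 90.1, 99.7 and 108 in KO LCA and 86.6, 100.5 and 96.5 in KO RCA, against 99.2, 97.6 and 79.5 in WT LCA and 104, 108 and 90.9 in WT RCA. The groups of that probe overlapped in every comparison. ILMN_2600964 ranged from 82.8 to 99.6 and exceeded background on 1 array, and its log2 difference of KO from WT in RCA was 0.17 ± 0.07 with unadjusted p = 0.0462 and adjusted p = 1.00, both groups being at background.

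**Figure D3:**
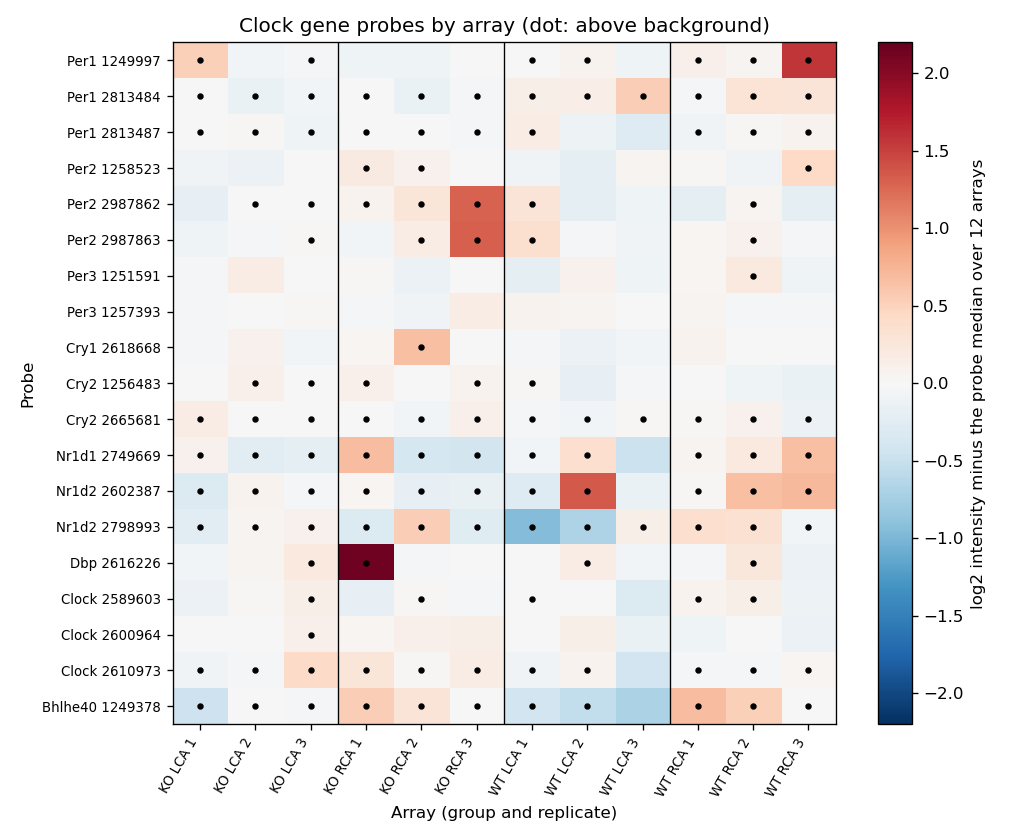
Log2 intensity of the 19 clock probes on each of 12 arrays, as the difference from the median of that probe over all arrays (colour), with a dot where the probe was above background and arrays ordered KO LCA, KO RCA, WT LCA and WT RCA. Single bright cells mark Dbp on KO RCA 1, the Per2 pair on KO RCA 3, Per1 on WT RCA 3 and Nr1d2 on WT LCA 2, and Bhlhe40 has the clearest contrast between LCA and RCA.

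Single arrays with a high value were common among the clock probes and among probes at large. For 5 of the 17 tested clock probes the highest array was at least 1.5 times the next, a rule chosen after the values were seen. Of all 25796 tested probes 14.3% met it, a smaller share, though 2 of the 5 clock probes are a Per2 pair high on the same array. The 5 were the Per1 probe ILMN_1249997 on WT RCA 3, the 2 Per2 probes on KO RCA 3, Nr1d2 ILMN_2602387 on WT LCA 2 and Dbp on KO RCA 1. These highs lay on 4 different arrays. Among all tested probes, WT LCA 3 held the most such highs with 757 and KO LCA 2 the fewest with 30.

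Counts of the 17 tested clock probes whose groups did not overlap were read beside the same counts over all tested probes. For ligation in KO there were 2 lower in LCA (both Per2; 11.8%, beside 11.2% of all probes) and 0 higher (beside 8.9%). For ligation in WT 1 was lower (Bhlhe40; 5.88%, beside 6.54%) and 0 higher (beside 4.4%). For KO in LCA 1 was lower, Per1 ILMN_2813484 (5.88%, beside 5.35%), and 0 higher (beside 7.61%). For KO in RCA 1 was lower, another Per1 probe, ILMN_1249997 (5.88%, beside 5.34%). In that comparison 3 were higher, of Per2, Cry2 and Clock (17.6%, beside 6.25%), which is above the share over all probes on a count of 3. No clock probe kept all 6 LCA arrays apart from all 6 RCA arrays (beside 0.523% of all probes lower and 0.411% higher), or all 6 KO arrays apart from all 6 WT arrays (beside 0.171% lower and 0.733% higher).

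Probes of the same gene mostly did not track each other. The Per2 probes ILMN_2987862 and ILMN_2987863 had r = 0.964 over 12 arrays in log2 intensity, a value that includes their shared high on KO RCA 3, and the third Per2 probe had r = -0.03 and -0.05 with them. The Nr1d2 pair had r = -0.14, the Cry2 pair 0.35 and the Per3 pair 0.02. Among Per1 probes r was 0.25, 0.35 and -0.35, and among Clock probes 0.44, 0.47 and 0.65. These are descriptions over arrays that share groups and quality, and a level for a gene as a whole was therefore not formed from its probes.

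**Figure D4:**
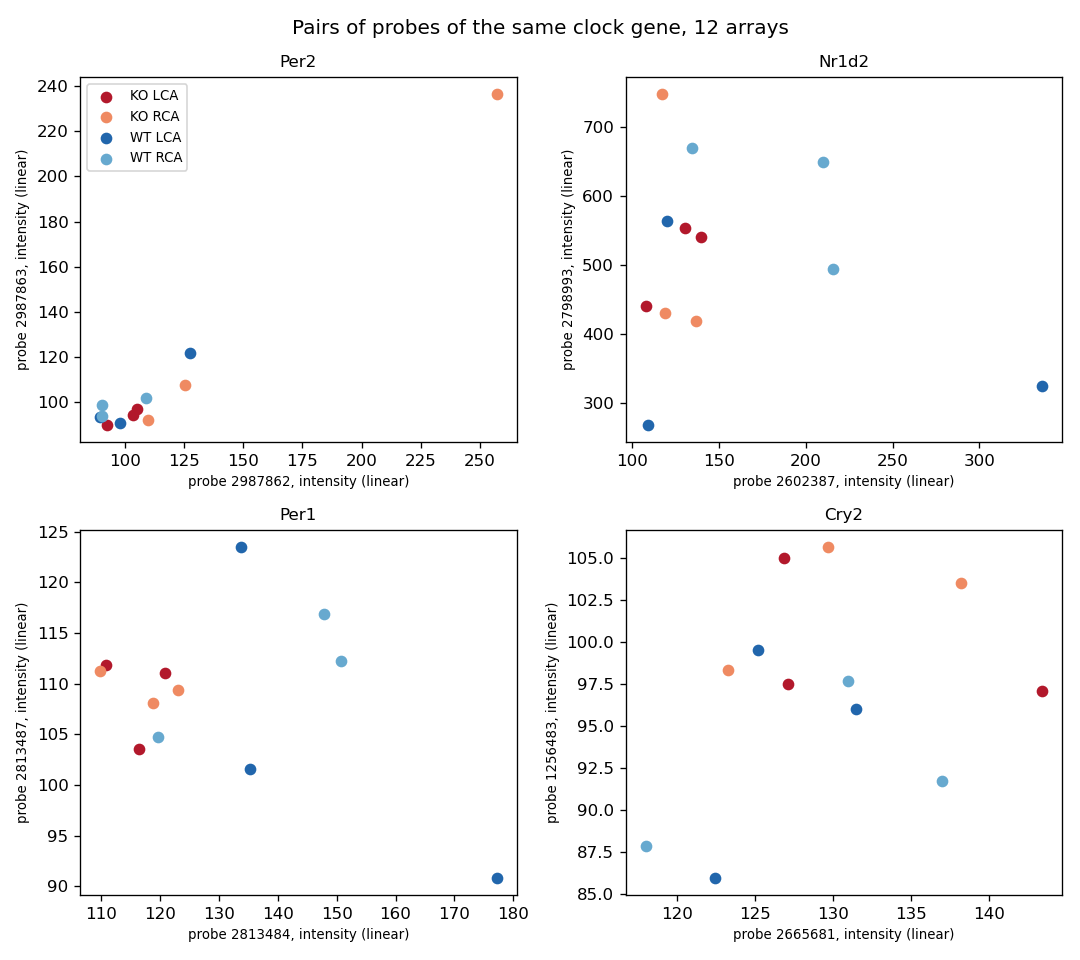
Deposited intensity (linear) of pairs of probes of the same gene on 12 arrays, for Per2, Nr1d2, Per1 and Cry2, coloured by group, with axes that do not start at 0. The Per2 pair is high together on 1 KO RCA array (r = 0.964), whereas the Nr1d2 pair (r = -0.14) and the Per1 pair shown (r = -0.35) do not track each other.

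Other genes of the loop were taken from a list of 41 symbols, some of them older names, of which 33 genes had a probe and 60 probes of 30 genes were tested. None of the 60 passed in any comparison. At an unadjusted p under 0.05, 4 were higher and 4 lower for ligation averaged over genotypes (median -0.03, beside 4.07% and 6.56% of all probes), and 5 were higher and 0 lower for KO averaged over sides (median 0.02, beside 4.52% and 1.9%). Arntl, the partner of Clock, read 85.0 to 164 and was above background on 7 arrays. Tef ILMN_2676052, a relative of Dbp that binds the same element, read 156 to 522 and was above background on all 12. It was highest on KO RCA 1 and KO RCA 2, the first of which also held the Dbp high. The other Tef probe, ILMN_2715400, did not share this. That probe was highest on WT LCA 3 and lay below background on KO RCA 1. Probes of other listed genes, those of Tspan4 among them, were also highest on KO RCA 1.

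The wider clock genes with the smallest p for ligation averaged over genotypes were Timeless, a replication fork protein with a disputed clock role in mammals, at -0.23 ± 0.05 (ILMN_1260427, adjusted p = 0.353), Btrc, a ubiquitin ligase subunit that targets period proteins, at 0.19 ± 0.06 (ILMN_2569774, adjusted p = 0.418), and the kinase gene Gsk3b at -0.17 ± 0.06 (ILMN_2593888, adjusted p = 0.420). These are single probes. The 2 other tested Timeless probes gave -0.03 ± 0.07 and, for ILMN_3097131, above background on all 12 arrays, -0.03 ± 0.09. The 3 other Btrc probes gave -0.04 to 0.05, and the other Gsk3b probe -0.31 ± 0.16. For KO averaged over sides they were Noct, a rhythmic phosphatase once described as a deadenylase, at 0.36 ± 0.06 (adjusted p = 0.0968), Rora, an activator of Arntl, at 0.32 ± 0.10 (adjusted p = 0.499), and the topoisomerase gene Top1 at 0.21 ± 0.09 (adjusted p = 0.692). None passed, and Noct came nearest. The second Noct probe gave 0.29 ± 0.08, the second Rora probe -0.05 ± 0.04, and the other tested Top1 probes -0.04 ± 0.05 and -0.01 ± 0.10. Noct ILMN_1255422 averaged 121 ± 11.1 in KO LCA, 119 ± 12.7 in KO RCA, 93.3 ± 2.03 in WT LCA and 93.9 ± 5.27 in WT RCA (SD, n = 3 each). Every KO array lay above every WT array for it, and the WT levels were at or near background.

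Glucocorticoids and acute stimuli set Per1 and other clock genes directly, so their target lists were read beside them. Of 16 tested probes for 13 glucocorticoid targets, none passed. For ligation averaged over genotypes 1 was higher and 2 lower at an unadjusted p under 0.05 (beside 4.07% and 6.56% of all probes), and those with the smallest p were the chaperone gene Fkbp5 at -0.29 ± 0.08 (adjusted p = 0.414), Tsc22d3 (GILZ) at -0.20 ± 0.07 (adjusted p = 0.418) and the transcription factor gene Klf15 at 0.13 ± 0.05 (adjusted p = 0.441). For KO averaged over sides 3 were higher and 1 lower (beside 4.52% and 1.9%), with a median of 0.17 beside -0.01 over all probes, and those with the smallest p did not share a direction. They were Tsc22d3 at -0.25 ± 0.07 (adjusted p = 0.312), the cell cycle inhibitor gene Cdkn1a at 0.27 ± 0.09 (adjusted p = 0.495) and Fkbp5 at 0.22 ± 0.08 (adjusted p = 0.633). Tsc22d3 values are for ILMN_2701664, 1 of 3 tested probes. ILMN_3150811, above background on all 12 arrays, gave -0.52 ± 0.38 for ligation averaged over genotypes and -0.77 ± 0.38 for KO averaged over sides. ILMN_2648224 gave 0.02 ± 0.05 and -0.03 ± 0.05. The Cdkn1a value is for ILMN_2846775, and the other tested Cdkn1a probe gave 0.15 ± 0.11.

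Of 23 tested probes for 19 immediate early genes, none passed. For ligation averaged over genotypes 1 was higher and 1 lower at an unadjusted p under 0.05 (beside 4.07% and 6.56% of all probes). The genes with the smallest p were the transcription factor genes Egr2 at 0.22 ± 0.07 (adjusted p = 0.418) and Egr3 at -0.12 ± 0.04 (adjusted p = 0.420), and the phosphatase gene Dusp1 at -0.57 ± 0.26 (adjusted p = 0.472). The Egr3 value is for ILMN_1227494, above background on 1 array, and the other tested Egr3 probe gave 0.07 ± 0.06. Egr2 was above background on 4 arrays and Dusp1 on 12. For KO averaged over sides 4 were higher and 0 lower (beside 4.52% and 1.9%), with a median of 0.09 beside -0.01 over all probes, and the smallest p belonged to the transcription factor genes Atf3 at 0.21 ± 0.05 (adjusted p = 0.325), Fos at 0.19 ± 0.07 (adjusted p = 0.576) and Fosb at 0.21 ± 0.08 (adjusted p = 0.647). Atf3 was above background on 5 arrays, Fos on 4 and Fosb on 4. Per1, which these stimuli can induce, had its probe ILMN_2813484 lower in KO by the values given above, with adjusted p = 0.408 in limma. For KO averaged over sides the other Per1 probes gave 0.02 ± 0.07 (ILMN_2813487) and -0.25 ± 0.24 (ILMN_1249997). A lower level in KO was thus not shown for Per1 as a gene, and a link to these lists was not tested.

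Genes whose levels over the 12 arrays most resembled those of a clock probe were listed by Pearson correlation of log2 intensity, as a description. For Per1 ILMN_2813484 they were Chst14 (0.92), Sfrp1 (0.90) and Golm2 (0.89). Sfrp1, a secreted Wnt antagonist, was above background on all 12 arrays at 312 to 794, while Chst14 was above it on none. For Dbp they were Serinc5 (0.99), Zmat3 (0.98) and Gpr146 (0.98), and the Serinc5 probe ranged from 89.9 to 687. Dbp itself was near background except on KO RCA 1, so these r values rest largely on that array. The Serinc5 probe was above background on 7 arrays, Zmat3 on 3 and Gpr146 on 4. For Nr1d1 they were Rev1 (0.94), Krt75 (0.89) and Fam47e (0.89), which were above background on 2, 3 and 3 arrays. They ranged from 84.2 to 103.3, 82.1 to 111.2 and 88.1 to 105.0, also at or near background. For Bhlhe40 they were Tdpoz1 (0.91), Ptpn3 (0.90) and Hoxa2 (0.89), which ranged from 91.4 to 102, 82.7 to 100.3 and 89.7 to 119.7, levels at or near background.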

How the data were processed

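Biotin-labelled cRNA from 12 carotid artery samples was hybridised to Illumina arrays, per the labels' protocols. The deposited table holds linear intensity values, and each array has nearly the same distribution, which is how quantile normalised values look. No scanner software or background step is named in the sources used here. Probes were named by the platform annotation (34885 with 1 symbol, 18 with several, 10378 with none). From the deposited intensity, log2 values were computed with a floor of 1. Probes at or above the array median on at least 3 arrays were kept (25796 probes, 15395 genes). limma 3.58.1 in R 4.3.3 fitted 4 group means and 7 contrasts with eBayes, and p-values were adjusted by Benjamini-Hochberg over all kept probes. The procedure was tested on simulated data. Main differences of clock probes are given with an SE, some also with a 95% interval, and 12 arrays limit the precision. Figures used matplotlib 3.10.9.

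Each clock probe above background on at least 3 arrays was named with all values, others by range. From each further list, the 3 members with the smallest p were named for the averaged comparisons. The 3 genes most correlated with chosen clock probes were named too, passing over predicted genes. The clock genes and the lists were chosen with earlier results of these data known. Where a group mean is given as a multiple of background, it is the brighter group's geometric mean over the background level of the other group's arrays. That multiple carries no error. Alternatives covered blocks, array weights, filters, normalization, pseudocount, probe choice and leaving out arrays.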

Additional observations from a re-analysis of the deposited data

How the results depend on the processing

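No clock probe passed an adjusted p of 0.05 under any alternative run, and of 2663 recomputed values for 119 differences none changed its side of the threshold, nor its sign where the main difference was at least 2 SE. Bhlhe40 ranged from -0.80 to -0.62 for ligation averaged over genotypes (adjusted p 0.198 to 0.590). Counts over all probes moved more. For KO averaged over sides, 32 probes passed, against 18 with 1 probe a gene, 1 with trend and robust eBayes, 48 with array weights and 40 with the stricter filter. For KO in LCA, 11 passed, against 4 with array weights, 1 with 1 probe a gene, 0 with trend and robust eBayes, 0 with those groups alone and 16 with the stricter filter. For ligation in WT, 0 passed, against 1 with array weights. Leaving out arrays gave 5 to 45 for KO averaged over sides, 0 to 25 for KO in LCA, 0 to 7 for KO in RCA, 0 to 3 for the interaction, 0 to 4 for ligation averaged over genotypes, 0 to 5 for ligation in KO and 0 to 11 for ligation in WT. Leaving out both WT arrays numbered 3, an alternative chosen after seeing the data, gave 11 for KO averaged over sides, 13 for KO in LCA, 7 for KO in RCA, 11 for ligation in WT and 4 for ligation averaged over genotypes. The causes were not tested beyond the smaller number of probes or arrays in some settings. The labels do not say that equal replicate numbers share a mouse, and deviations of same-numbered LCA and RCA arrays had correlations between -0.015 and 0.0814. In WT every LCA array correlated best with its own number, in KO not every one did. With the replicate number as a fixed block, 0 probes passed for ligation in KO, ligation in WT, the interaction and ligation averaged over genotypes. As a random block, 25 passed for KO averaged over sides and 10 for KO in LCA. A fixed block cannot estimate the KO comparisons, and the groups-alone fit was not run for the interaction and averages. Most clock probes lie close to background, where an intensity ratio may understate a fold change.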
